A study of Homo sapiens with 4 samples.

Results

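ZNF genes carry names made of the letters ZNF and a number, and most encode proteins with C2H2 zinc fingers. Genes were taken as members when the deposited symbol was ZNF followed by a number and at most 1 further letter, and when the expected counts of the 4 libraries summed to at least 300. The rule gave 260 members out of 557 genes with such a name, among 61498 genes in all. An expected count is the number of reads that the program RSEM assigns to a gene, with reads that fit several genes divided between them. The rule used the summed count only, so members were chosen by measured abundance, and the comparison of the conditions was not used. Just inside the threshold were ZNF239 with 301.67, ZNF417 with 304.97 and ZNF519 with 306.02 summed counts. Just outside were ZNF124 with 296.09, ZNF169 with 292.51 and ZNF564 with 287.12 summed counts.

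A C2H2 zinc finger is a short fold held by a zinc ion between a pair of cysteines and a pair of histidines, and fingers in a row read DNA one short step after another. Many ZNF proteins also carry a KRAB domain, which binds the co-repressor TRIM28 and through it the histone methyltransferase SETDB1 and the heterochromatin proteins. KRAB zinc finger genes arose by repeated duplication, lie in clusters on chromosome 19 above all, and are best known for silencing retrotransposons. Other ZNF proteins carry a SCAN or a BTB domain, and some have left DNA binding altogether and work on ribosomes, RNA or the spindle.

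The samples were K562, an erythroleukaemia line from human bone marrow that turns toward the erythroid state when treated with hemin, the iron-containing porphyrin of haemoglobin. Both conditions were of the same line in the same medium. The 2 untreated libraries received no hemin, and the 2 hemin libraries came from cells kept with 50 µM hemin for 108 h. Poly(A) RNA was sequenced in reads of 50 bases. The expected counts summed to between 7455447 and 8241534 per library, and 14458 genes passed the filter on low counts and were tested. All 11 erythroid and K562 markers were present, with a summed level of 5625 to 5864 TPM (the authors' level per transcript, scaled by effective length and by library) in the untreated and 6726 to 7188 TPM in the hemin libraries. Of 10 markers of other lineages, CD3E and MS4A1 were at 0 in every library, and the summed level was 45.4 to 49.3 TPM untreated and 44.7 to 51.8 TPM after hemin, nearly all of it from the epithelial gene EPCAM, at up to 49.2 TPM. The labels do not say whether the 2 libraries of a condition came from separate cultures, so p-values measure only the spread between these libraries. In bulk RNA, fewer cells with a transcript and less of it per cell cannot be told apart.

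The KRAB A box is the part of the KRAB domain that meets TRIM28, and its coding stretch is shown for 3 of the most changed KRAB members, ZNF614 and ZNF33B among those that rose and ZNF558 among those that fell. Capitals mark 3 codons that end in the tryptophan codon TGG of the box. Sequences are of the coding strand, 5′ to 3′, from GRCh38 with the gene models of GENCODE 44.
ZNF614: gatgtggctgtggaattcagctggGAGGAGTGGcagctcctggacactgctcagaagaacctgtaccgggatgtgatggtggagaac
ZNF33B: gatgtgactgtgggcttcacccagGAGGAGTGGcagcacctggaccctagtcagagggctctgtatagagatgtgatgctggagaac
ZNF558: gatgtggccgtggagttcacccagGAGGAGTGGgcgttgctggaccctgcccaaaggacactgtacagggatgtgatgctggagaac
They lie at chr19:52018390-52018476, chr10:42632317-42632403 and chr19:8821202-8821288, each on the minus strand. The capitals read the same in these 3 genes. Over the 29 residues that each stretch encodes, 24 in ZNF614, 23 in ZNF33B and 25 in ZNF558 were the most frequent residue of the 256 such stretches compared.

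The first zinc finger of the same genes, with the linker to the next finger, shows the repeat that gives the family its name. Capitals mark the codons of the cysteines and histidines that hold the zinc.
ZNF614: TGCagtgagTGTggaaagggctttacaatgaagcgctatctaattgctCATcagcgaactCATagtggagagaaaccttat
ZNF33B: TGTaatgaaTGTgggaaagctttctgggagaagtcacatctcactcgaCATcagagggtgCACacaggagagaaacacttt
ZNF558: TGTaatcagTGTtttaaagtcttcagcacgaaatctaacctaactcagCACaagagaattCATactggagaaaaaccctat
These stretches are at chr19:52016653-52016733, chr10:42593879-42593959 and chr19:8811950-8812030, all on the minus strand. ZNF614 had 10 such fingers, ZNF33B had 16 and ZNF558 had 9.

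Among the 557 ZNF-named genes, 153 of 341 with a KRAB A box were members, which is 44.9%, against 99 of 166 coding genes without one, which is 59.6%. Of 50 genes without a coding sequence in the annotation, mostly pseudogenes, 8 were members. Of the other 297 genes, 49 were at 0 in all 4 libraries and 248 had counts that summed to less than 300. The 252 members with a coding sequence had a median of 10 fingers and a median coding length of 605.5 residues. KRAB members had a median of 12 fingers and members without KRAB a median of 8. The most fingers, 36, were in ZNF142, which is named for this alone. At the other end 11 members had fewer than 2 fingers of the C2H2 pattern, among them ZNF598, ZNF593, ZNF326, ZNF830, ZNF706 and ZNF330. A SCAN domain was found in 10 members, including ZNF24, ZNF202, ZNF263, ZNF274, ZNF75A and ZNF397.

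ZNF members were transcribed at modest levels. The mean level over the 4 libraries had a median of 11.1 TPM, with the middle 50% of members between 7.67 and 20.7 TPM, beside a median of 14.98 TPM over all genes tested and 27.5 TPM over the 9745 tested genes that also had at least 300 counts. In per-length terms KRAB members were at a median of 10.05 TPM and members without KRAB at 16.4 TPM. The 260 members together took between 0.923% and 0.939% of the counts of a library, with 4717 and 4603 TPM in the untreated and 4712 and 4665 TPM in the hemin libraries. The summed level of the family thus overlapped between the conditions.

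The most abundant member per length was ZNF207, which encodes the spindle and kinetochore protein BuGZ. It stood at 173 and 166 TPM in the untreated and at 185 and 197 TPM in the hemin libraries. ZNF595, a KRAB gene near the tip of chromosome 4, was at 171 TPM in both untreated libraries and at 171 and 157 TPM in the hemin ones. These values overlapped between the conditions. ZNF692, a factor also known for binding an AICAR response element, was at 177 and 174 TPM untreated and at 134 and 124 TPM after hemin. ZNF598, a ubiquitin ligase that marks collided ribosomes, rose from 91.8 and 79.9 TPM to 120 and 110 TPM. ZNF706, a small protein with 1 finger, was at 85.5 and 91.5 TPM untreated and at 95.3 and 77.3 TPM after hemin. In untreated cells the values of ZNF595 lay within the range of those of ZNF207, and those of ZNF692 just above it. After hemin both values of ZNF692 were below those of the other two genes.

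Few members differed after hemin, and none reached 2-fold in the edgeR fit of all libraries. Of the 260 members, 17 were higher after hemin, which is 6.54%, and 8 were lower, which is 3.08%, at an adjusted p below 0.05 in edgeR's quasi-likelihood test over all genes. Among all genes tested the shares were 7.00% higher and 7.14% lower, and among tested genes with at least 300 summed counts 9.99% higher and 8.52% lower. So the share that rose was near the background of all genes and the share that fell was below both backgrounds, as a description without a test. A 2-fold change was reached by 34 of the 9745 genes with at least 300 counts. With library size as the only scaling 11 members were higher and 11 lower, beside 5.04% and 9.39% of all genes. With any 1 library left out, fewer members were called in each direction, and smaller shares of all genes were called as well.

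The middle of the family lay close to 0. The median log2 fold change of the members was 0.054, beside -0.005 over all genes tested and 0.016 over genes with at least 300 counts. It was above 0 in 157 members, or 60.4%, beside 49.1% of all genes tested and 53.1% of genes with at least 300 counts. The log2 fold change was within 0.25 of 0 in 204 members, or 78.5%, against 76.9% of genes with at least 300 counts. For each pair of 1 hemin and 1 untreated library the median log2 ratio of the members lay between 0.042 and 0.065. The median absolute log2 difference between the 2 untreated libraries was 0.107 and between the 2 hemin libraries 0.101, against 0.125 between the conditions. Over genes with at least 300 counts these medians were 0.0823 and 0.0802 within conditions and 0.135 between them. In 89 members both hemin libraries were above both untreated ones, or 34.2% beside 28.1% of all genes tested and 33.4% of genes with at least 300 counts. In 45 members both were below, or 17.3% beside 29.3% and 28.4%.

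**Figure D1:**
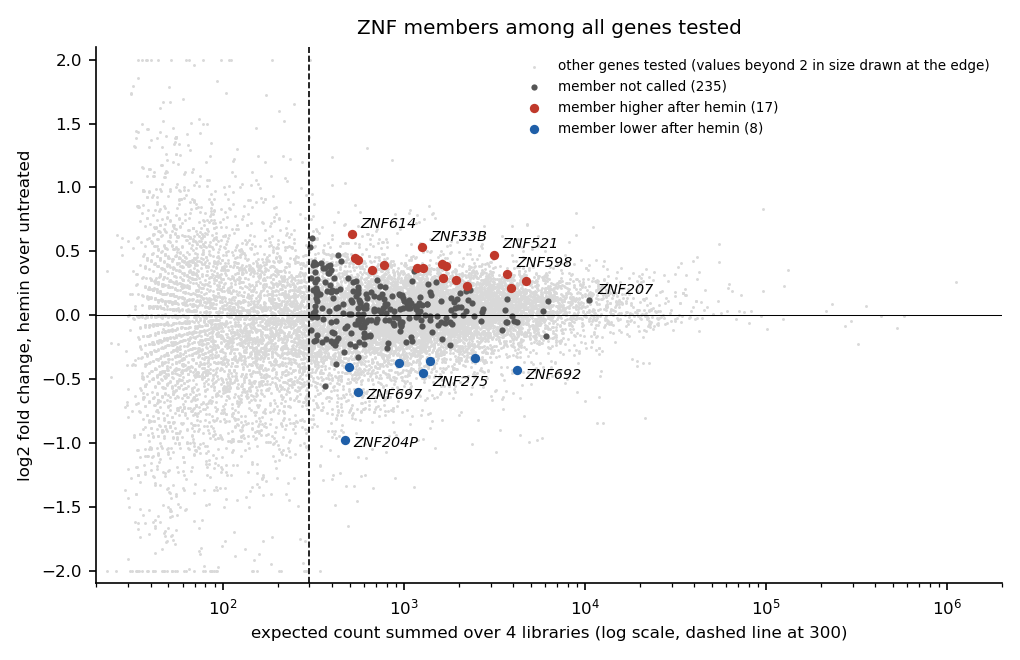
Log2 fold change of hemin over untreated (vertical axis) against the expected count summed over the 4 libraries (horizontal log axis) for the 260 ZNF members and all other genes tested in grey. The 17 members that rose and the 8 that fell are coloured, and all members lie within a log2 fold change of -0.98 to 0.63.

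The share of members called grew with the count. None of the 74 members with 300 to 500 counts was higher in the edgeR test, by DESeq2 or by limma, while 14, or 18.9%, were higher at an unadjusted edgeR p below 0.05. In this class 2 members were lower, or 2.7%. Of the other genes of the class 2.19% were higher and 6.51% lower, and 7.26% were higher at the unadjusted p. In the class of 500 to 1000 counts 5 of 94 members were higher and 2 lower, or 5.32% and 2.13%, beside 3.6% and 9.23% of other genes. In that of 1000 to 2000 counts 7 of 61 were higher and 2 lower, or 11.5% and 3.28%, beside 7.69% and 8.12%. Of 31 members with 2000 or more counts 5 were higher, or 16.1%, and 2 were lower, or 6.45%, beside 19.5% and 9.55% of the other genes of that class. The median standard error of the log2 fold change fell from 0.16 in the lowest class to 0.06 in the highest. ZNF45, ZNF239 and ZNF26 show this at the low end. The first of them had 69 and 54 counts untreated and 98 and 90 counts after hemin, a log2 fold change of 0.61 that did not pass (edgeR adjusted p = 0.0516), and ZNF239 was at 0.53 (edgeR adjusted p = 0.0848). ZNF26 was at 0.47 (edgeR adjusted p = 0.0738), and ZNF133 on the other side was at -0.55 (edgeR adjusted p = 0.0513). ZNF45, ZNF26 and ZNF133 were chosen after their values were seen.

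**Figure D2:**
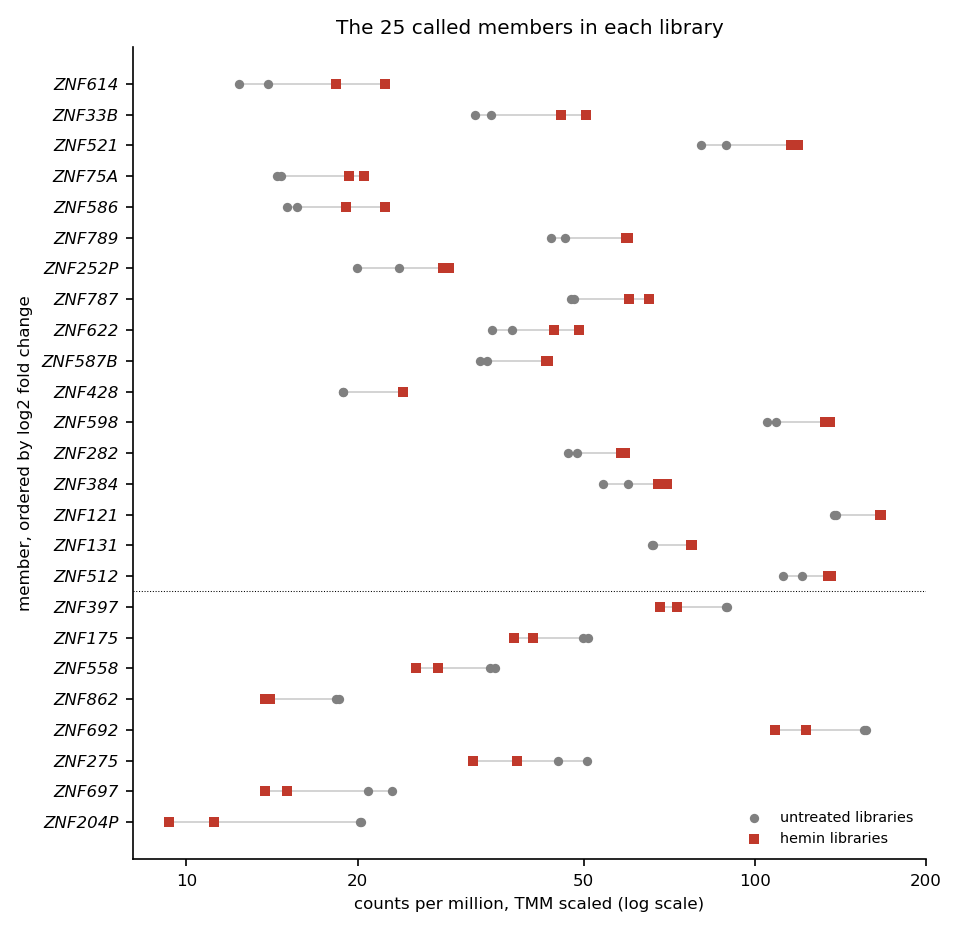
Level of the 25 called members in each library, in CPM after TMM scaling (horizontal log axis), ordered by log2 fold change. Circles are the 2 untreated and squares the 2 hemin libraries, and in every one of the 25 genes the circles and squares do not overlap. The genes were called on these same libraries, which makes such separation likely.

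The 10 largest rises among the called members are described first, with levels in CPM (counts scaled to a common library total by the TMM method) in the untreated and then in the hemin libraries. ZNF614 (ENSG00000142556), a KRAB gene on chromosome 19, was at 12.4 and 13.9 CPM untreated and at 18.3 and 22.3 CPM after hemin. Its log2 fold change was the largest among called members that rose, at 0.63 with a standard error of 0.14 (edgeR adjusted p = 0.0179). ZNF33B (ENSG00000196693), a KRAB gene on chromosome 10 and the paralogue of ZNF33A, was at 32.2 and 34.3 CPM and then at 45.6 and 50.5 CPM. This is a log2 fold change of 0.53 ± 0.09 (SE, edgeR adjusted p = 0.004625). In TPM the gene varied more between its untreated libraries, at 17.6 and 9.20 TPM against 15.8 and 14.2 TPM after hemin, and these values overlapped. The effective length by which RSEM divides its count was 2589 and 5155 bases in the untreated libraries. ZNF521 (ENSG00000198795), which keeps blood cell precursors immature and binds the NuRD co-repressor, was at 80.4 and 88.8 CPM untreated. After hemin it was at 119 and 116 CPM, a log2 fold change of 0.47 ± 0.06 (SE, edgeR adjusted p = 0.0015). It was the called member with the smallest adjusted p, and none of its 50-base windows occurred on the same strand of another gene's transcripts.

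ZNF75A (ENSG00000162086), which has SCAN and KRAB sequence, went from 14.7 and 14.4 CPM to 20.5 and 19.3 CPM, at 0.45 ± 0.12 (log2, SE, edgeR adjusted p = 0.0313). ZNF586 (ENSG00000083828) and its neighbour ZNF587B (ENSG00000269343) are KRAB genes side by side on chromosome 19, and their annotated exons overlap on the same strand. The first was at 15.1 and 15.6 CPM and then at 22.4 and 19.1 CPM (log2 fold change 0.43, edgeR adjusted p = 0.0482). The other was at 33.8 and 32.9 CPM and then at 43.3 and 42.9 CPM (log2 fold change 0.37, edgeR adjusted p = 0.0139). ZNF587B shared 17.5% of its 50-base windows with other genes, so part of its reads could belong elsewhere. ZNF789 (ENSG00000198556), a KRAB gene on chromosome 7, was at 43.9 and 46.3 CPM untreated and at 59.3 and 59.7 CPM after hemin. The log2 fold change was 0.40 ± 0.07 (SE, edgeR adjusted p = 0.006437). In all of these genes both hemin libraries were above both untreated ones, which their selection on the same libraries makes likely.

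ZNF252P (ENSG00000196922), a transcribed pseudogene on chromosome 8, was at 19.98 and 23.6 CPM and then at 28.99 and 28.3 CPM (log2 fold change 0.39, edgeR adjusted p = 0.0379). ZNF787 (ENSG00000142409), a gene of chromosome 19 without KRAB, was at 48.1 and 47.5 CPM and then at 65.1 and 60.1 CPM, at 0.39 ± 0.07 (log2, SE, edgeR adjusted p = 0.008198). ZNF622 (ENSG00000173545), a factor of the maturation of the large ribosomal subunit, was at 37.4 and 34.5 CPM and then at 49.0 and 44.3 CPM. That is a log2 fold change of 0.37 ± 0.09 (SE, edgeR adjusted p = 0.0217). A further 7 members rose. Of these ZNF598, ZNF282 and ZNF384 are described by role below, and ZNF428, ZNF121, ZNF131 and ZNF512 are named because they complete the count, chosen after their values were seen. ZNF121 was the most deeply read of the 17, with 1091 and 1041 counts untreated and 1232 and 1347 counts after hemin, a log2 fold change of 0.27 ± 0.04 (SE, edgeR adjusted p = 0.005598). The other three were at log2 fold changes of 0.35 for ZNF428, 0.23 for ZNF131, a gene with a BTB domain, and 0.21 for ZNF512. ZNF512 shared 28.2% of its windows with an overlapping gene on the same strand.

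The largest fall was in ZNF204P (ENSG00000204789), a pseudogene on the minus strand of chromosome 6 at chr6:27358252-27359854. It had 159.65 and 152.13 counts in the untreated libraries and 68.70 and 90.20 counts in the hemin libraries, or 20.2 and 20.3 CPM against 9.30 and 11.2 CPM. In TPM it went from 11.6 ± 0.375 (SD, n = 2) to 5.65 ± 0.75 (SD, n = 2). The log2 fold change was -0.98 ± 0.14 (SE, edgeR adjusted p = 0.00233), and it passed 2-fold with library size only (-1.02), without hemin replicate 2 (-1.12) and in limma on log2(TPM + 0.1) (-1.03). No window of 50 bases was shared with another gene's transcripts on the same strand. ZNF697 (ENSG00000143067), on chromosome 1, was next, from 20.9 and 23.0 CPM to 13.8 and 15.0 CPM. Its log2 fold change was -0.60 ± 0.12 (SE, edgeR adjusted p = 0.01102).

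ZNF275 (ENSG00000063587), on the X chromosome, went from 50.7 and 45.0 CPM to 38.2 and 32.0 CPM, at -0.45 ± 0.10 (log2, SE, edgeR adjusted p = 0.019). ZNF692 (ENSG00000171163), the abundant gene on chromosome 1 described above, had 1239 and 1163 counts untreated and 913 and 875 counts after hemin. Its log2 fold change was -0.43 ± 0.06 (SE, edgeR adjusted p = 0.002713). ZNF862 (ENSG00000106479) went from 18.3 and 18.6 CPM to 14.0 and 13.8 CPM, with an adjusted p just below the threshold (log2 fold change -0.41, edgeR adjusted p = 0.0491). The KRAB genes ZNF558 (ENSG00000167785) and ZNF175 (ENSG00000105497) lie on the short and on the long arm of chromosome 19. ZNF558 went from 34.1 and 34.9 CPM to 25.4 and 27.8 CPM (log2 fold change -0.37, edgeR adjusted p = 0.0237). ZNF175 went from 51.0 and 49.8 CPM to 37.6 and 40.8 CPM (log2 fold change -0.36, edgeR adjusted p = 0.0151). ZNF397 (ENSG00000186812), a SCAN gene on chromosome 18, went from 88.9 and 89.3 CPM to 68.1 and 73.0 CPM, at -0.34 ± 0.06 (log2, SE, edgeR adjusted p = 0.007316).

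Of the 25 calls, 9 were kept whichever library was left out, namely ZNF33B, ZNF521, ZNF789, ZNF787, ZNF598 and ZNF121 among those that rose and ZNF204P, ZNF692 and ZNF397 among those that fell. The direction of all 25 was the same in all 15 alternative settings. Among the other rises, ZNF614 did not pass without untreated replicate 1 (edgeR adjusted p = 0.0928) or without hemin replicate 2 (edgeR adjusted p = 0.0866). ZNF622 did not pass without untreated replicate 1, untreated replicate 2 or hemin replicate 1 (edgeR adjusted p from 0.0534 to 0.114), and ZNF587B without either untreated library (0.0575 and 0.0711). ZNF75A, ZNF428 and ZNF131 lost the call whichever of the 4 libraries was missing. The edgeR adjusted p reached 0.106 in ZNF75A, 0.14 in ZNF428 and 0.108 in ZNF131. ZNF586 lost it without either untreated library or hemin replicate 1, up to 0.228, and ZNF252P without untreated replicate 1 or either hemin library, up to 0.198. ZNF282 lost it without either untreated library or hemin replicate 2, up to 0.103. ZNF384 lost it without untreated replicate 1 (0.178) or hemin replicate 1 (0.0835), and ZNF512 without untreated replicate 2 or either hemin library, up to 0.142.

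Among the falls, ZNF697 did not pass without untreated replicate 2 (edgeR adjusted p = 0.0667), and ZNF275 not without untreated replicate 1 (edgeR adjusted p = 0.116) or hemin replicate 2 (edgeR adjusted p = 0.0697). ZNF558 and ZNF175 lost the call without either untreated library or hemin replicate 1, with edgeR adjusted p up to 0.103 and 0.0767. ZNF862 lost it whichever library was missing, up to 0.156.

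By role, the RNA, ribosome and spindle factors had 2 of 9 members higher, ZNF598 and ZNF622, and none lower. The shares were 7.00% and 7.14% of all genes, and 9.99% and 8.52% of tested genes with at least 300 counts. At an unadjusted p below 0.05 the same edgeR test had 4 of the 9 higher and none lower. This was beside 14.8% and 14.6% of all genes, and 19.9% and 15.9% of genes with at least 300 counts. The 9 had a median of 1274 summed counts, and calls grew more frequent with the count. DESeq2 called 1 higher and none lower, beside 4.07% and 3.49% of all genes. ZNF598 (ENSG00000167962) had 861 and 786 counts untreated and 1004 and 1071 counts after hemin, a log2 fold change of 0.33 ± 0.05 (SE, edgeR adjusted p = 0.003861). ZNF326, a subunit of the DBIRD complex that links RNA polymerase II to splicing, was at 46.4 and 41.8 CPM and then at 51.4 and 54.4 CPM. Its log2 fold change of 0.26 did not pass (edgeR adjusted p = 0.0573). ZNF207 was at a log2 fold change of 0.12 ± 0.04 (SE), with all hemin values above the untreated ones, and did not pass (edgeR adjusted p = 0.105). The other five did not pass either. They were ZNF830, linked to splicing, at 0.26, ZNF593, an assembly factor of the large ribosomal subunit, at 0.13, and ZNF638, which silences unintegrated retroviral DNA with the HUSH complex, at 0.03. ZNF346, which binds double-stranded RNA, was at -0.01, and ZNF330, a nucleolar protein, at -0.09. The median log2 fold change of the 9 was 0.13.

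Among 10 members listed as activators of housekeeping and chromatin genes, ZNF384 was higher and none was lower in the edgeR test. The list was written by hand, and its name need not hold for every member. The calls stand beside 7.00% and 7.14% of all genes, and 9.99% and 8.52% of genes with at least 300 counts. At an unadjusted p below 0.05 there were 2 higher and 2 lower. This was beside 14.8% and 14.6% of all genes, and 19.9% and 15.9% of genes with at least 300 counts. DESeq2 called none in either direction, beside 4.07% and 3.49% of all genes. ZNF384, a factor found in fusion genes of acute leukaemia, was at 54.0 and 59.8 CPM and then at 70.0 and 67.4 CPM (log2 fold change 0.27, edgeR adjusted p = 0.0338). ZNF143, an activator of small nuclear RNA and many housekeeping promoters, was at 19.9 and 20.03 CPM and then at 14.8 and 16.9 CPM. The log2 fold change of -0.33 ± 0.12 (SE) did not pass (edgeR adjusted p = 0.0963), and in TPM the gene was at 14.1 in both conditions. Its paralogue ZNF76 was at -0.21 (edgeR adjusted p = 0.172). ZNF711, a relative of ZFX, was at -0.18 (edgeR adjusted p = 0.118), with 428 and 430 counts untreated and 358 and 402 counts after hemin. ZNF24, a SCAN factor and the second most deeply read member of the role lists, was at 0.11 (edgeR adjusted p = 0.103). ZNF263, ZNF148, ZNF335, ZNF410 and ZNF281 were between 0.16 and -0.03. ZNF410, the activator of CHD4, had 34.1% of its windows in common with other genes.

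Of 8 partners of co-repressor complexes without KRAB, ZNF521 was higher and none was lower in the edgeR test. The calls stand beside 7.00% and 7.14% of all genes, and 9.99% and 8.52% of genes with at least 300 counts. At an unadjusted p below 0.05 there were 3 higher and none lower. The shares at this p were 14.8% and 14.6% of all genes, and 19.9% and 15.9% of genes with at least 300 counts. DESeq2 called 1 higher and none lower, beside 4.07% and 3.49% of all genes. ZNF512B, which binds NuRD, was at 32.0 and 33.1 CPM and then at 40.5 and 37.9 CPM, a log2 fold change of 0.27 that did not pass (edgeR adjusted p = 0.0605). ZNF827, which recruits NuRD, gave opposite readings on the 2 scales. Its counts were 74 and 66 untreated and 90 and 96 after hemin (log2 fold change 0.40, edgeR adjusted p = 0.115), whereas its TPM were 5.31 and 2.59 untreated and 3.26 and 3.13 after hemin. Its effective length was 2481 and 4705 bases in the untreated and 5110 and 5165 bases in the hemin libraries. ZNF219 was at 0.19, ZNF644, a partner of the G9a and GLP methyltransferases, at 0.13, and the ZMYND8 partners ZNF592 and ZNF687 at 0.07 and -0.01. ZNF217, a partner of CoREST and LSD1, was at -0.13. Of the same list ZNF516, with 278 summed counts, was below the threshold, and ZNF532, ZNF703 and ZNF423, the paralogue of ZNF521, were at 2.05, 1 and 0 summed counts. ZNF521 was thus read by 3118 counts where its paralogue had none.

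Of 10 KRAB genes with described targets, ZNF282 was higher, from 46.9 and 48.6 CPM to 58.1 and 59.0 CPM (log2 fold change 0.29, edgeR adjusted p = 0.021), and none was lower. The calls stand beside 7.00% and 7.14% of all genes, and 9.99% and 8.52% of genes with at least 300 counts. DESeq2 called none, beside 4.07% and 3.49% of all genes. At an unadjusted edgeR p below 0.05 there were 2 higher and none lower. The shares at the unadjusted p were 14.8% and 14.6% of all genes, and 19.9% and 15.9% of genes with at least 300 counts. ZNF282 was first described on a retroviral promoter element. ZNF274, which brings SETDB1 to the 3′ ends of ZNF genes, was at 42.0 and 38.1 CPM and then at 49.8 and 45.2 CPM. This is 0.24 ± 0.09 (log2, SE) and did not pass (edgeR adjusted p = 0.0892), though both hemin libraries were above both untreated ones. The repressors of retrotransposons did not pass. ZNF91, which acts on SVA elements, was at 54.8 and 50.6 CPM and then at 49.2 and 52.4 CPM (log2 fold change -0.05, edgeR adjusted p = 0.709). The LINE-1 binding ZNF765 and ZNF649 were at 0.09 and 0.04. ZNF445, a guardian of imprinted regions, was at -0.04 with 2658 summed counts. ZNF746, ZNF202, ZNF224 and ZNF589 were between 0.17 and -0.05. ZNF93, ZNF268 and ZNF10, the source of the KRAB domain used in CRISPR interference, had 248, 205 and 198 summed counts and were no members.

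**Figure D3:**
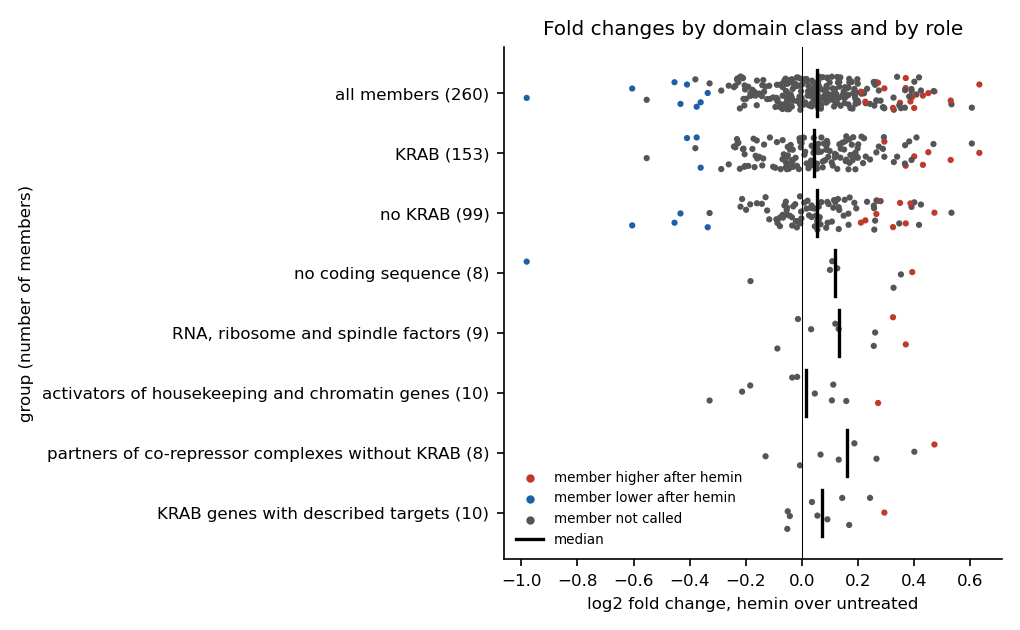
Log2 fold change of hemin over untreated for each member (points), by domain class and by role, with the median of each group as a bar. Group medians lie between 0.02 and 0.16, and calls in both directions occur in KRAB members and in members without KRAB.

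By domain, 7 of 153 KRAB members were higher, or 4.58%, and 3 were lower, or 1.96%. Of 99 members without KRAB 9 were higher, or 9.09%, and 4 lower, or 4.04%. All genes with at least 300 counts were at 9.99% higher and 8.52% lower. The classes also differed in depth, with a median of 601 summed counts in KRAB members and 957.1 in the others, and the difference between them was not tested. Their medians were alike, at log2 fold changes of 0.04 and 0.06. Of the 8 members without a coding sequence ZNF252P rose and ZNF204P fell. Other families of zinc finger genes with at least 300 counts also held calls in both directions. There were none among 9 ZSCAN genes by edgeR or DESeq2 (1 lower at an unadjusted p below 0.05), 1 lower of 5 ZKSCAN genes, 1 higher of 7 ZFP genes, and 1 higher and 2 lower of 28 ZBTB genes, to be read beside the same 9.99% and 8.52%.

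The co-repressor that KRAB proteins need was also measured. In a list of 30 genes of KRAB co-repression, the HUSH complex, DNA methylation and H3K9 methylation, 6 were higher, or 20%, and none was lower in the edgeR test, with 13 higher and 1 lower at an unadjusted p below 0.05, or 43.3% and 3.33%. DESeq2 called 4 higher and none lower, beside 4.07% and 3.49% of all genes. TRIM28 had 2664 and 2575 counts untreated and 3094 and 3276 counts after hemin, a log2 fold change of 0.27 ± 0.04 (SE, edgeR adjusted p = 0.0032). TRIM24, a relative of TRIM28, rose from 107 and 108 CPM to 149 and 148 CPM, at 0.47 ± 0.05 (log2, SE, edgeR adjusted p = 0.00051). The NuRD helicases CHD3 and CHD4 rose by log2 fold changes of 0.28 (edgeR adjusted p = 0.008885) and 0.24 (edgeR adjusted p = 0.004581). UHRF1, which guides maintenance DNA methylation, rose by 0.29 on the log2 scale (edgeR adjusted p = 0.0479). SETDB1 was at 0.09 and the heterochromatin genes CBX1, CBX3 and CBX5 were at 0.01, 0.13 and -0.04, none past the threshold. These genes were deeper than the members, with a median of 2890 summed counts, and in the class of 2000 or more counts 19.5% of other genes were higher, and 32.9% at the unadjusted p.

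Of the 260 members 105 lay on chromosome 19 and 23 on chromosome 7, which held the second largest number. Of the 263 ZNF-named genes of chromosome 19, 39.9% were members, against 52.7% of the 294 elsewhere. On chromosome 19 there were 6 higher and 2 lower, or 5.71% and 1.90%, beside 7.5% and 10.3% of the 947 other genes tested there. Elsewhere 11 of 155 were higher and 6 lower. The median log2 fold change was 0.06 on chromosome 19 and 0.04 elsewhere.

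Neighbouring ZNF-named genes at most 500 kb apart were joined into clusters, and 12 clusters held at least 5 members. The largest, on chromosome 19 between ZNF175 and ZNF813 (chr19:51571283-53580269), held 28 members of 43 ZNF-named genes. It contained both the largest rise, ZNF614, and the fall of ZNF175, and its median was 0.04. The cluster at the end of that arm, between ZNF805 and ZNF324 (chr19:57191500-58481230), had 16 members of 43 named genes, with ZNF586 and ZNF587B higher. Its log2 fold changes were above 0 in 14 of 16 genes, beside 60.4% of all members. Signs within clusters were not tested, and neighbours can share sequence or overlap, as ZNF586 and ZNF587B do. On the short arm, the cluster from ZNF558 to ZNF562 (chr19:8509678-9793180) had ZNF558 lower and ZNF121 higher. The cluster near the centromere from ZNF101 to ZNF254 (chr19:19668796-24129968) had 16 members of 42 named genes, 15 of them KRAB, with log2 fold changes from -0.26 to 0.29. The cluster from ZNF653 to ZNF791 had only 6 members of 28 named genes, and 1 of them was above 0. On chromosome 7 the cluster from ZNF398 to ZNF862 (chr7:149069641-149867479) had ZNF282 higher and ZNF862 lower, with 7 of 8 members above 0. In the 3 clusters that held a gene of each direction, genes that rose and fell were within the same stretch.

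**Figure D4:**
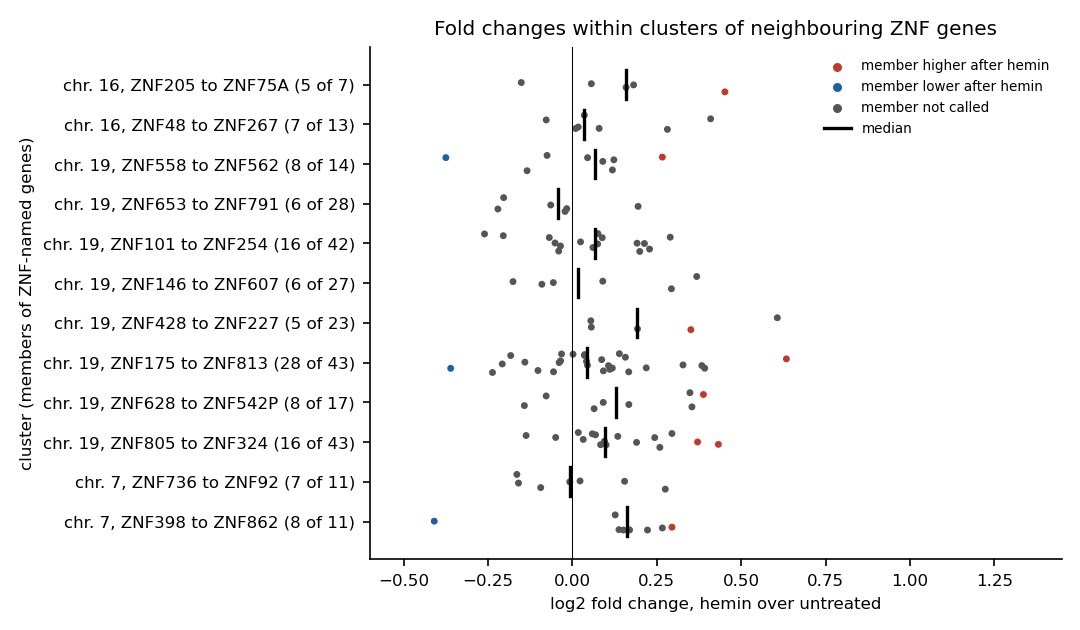
Log2 fold change of each member (points) in the 12 clusters of neighbouring ZNF-named genes with at least 5 members, with the median of each cluster as a bar. Cluster medians run from -0.04 to 0.19, and no cluster has more than 2 calls.

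Because ZNF genes are duplicates of each other, the share of a gene's 50-base windows that also occur in another gene was computed from GRCh38. The median over members was 1.34%, with 66 members at 0 and 35 members above 10%. RSEM's posterior standard deviation, which describes how surely reads were divided between genes, had a median of 0.586% of the count in members, against 0.18% in all genes tested. It was a median of 2.56% in the members with over 10% of windows shared and of 0.0995% in the 122 members with under 1%. Across the 260 members the 2 measures rose together (Spearman rho 0.64, a description, since members share sequence with each other and differ in count). The members with the highest posterior standard deviation were ZNF417 at 10.1% of the count, ZNF814 at 7.21%, ZNF337 at 7.15%, ZNF321P at 6.92% and ZNF724 at 5.64%. ZNF417 shared 36.03% of its windows, most of them with ZNF587, and ZNF724 shared 48.2%. ZNF337 shared none of its windows but overlaps an antisense gene. None of these 5 passed the test, with log2 fold changes between -0.18 and 0.29, and the called members were at most at 2.73%. Exons of 91 members overlap those of a gene on the opposite strand, among them 11 of the 25 called. The RSEM options of the study name no strand setting, so reads within such an overlap cannot be told apart by strand. The length of the overlaps was not measured.

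**Figure D5:**
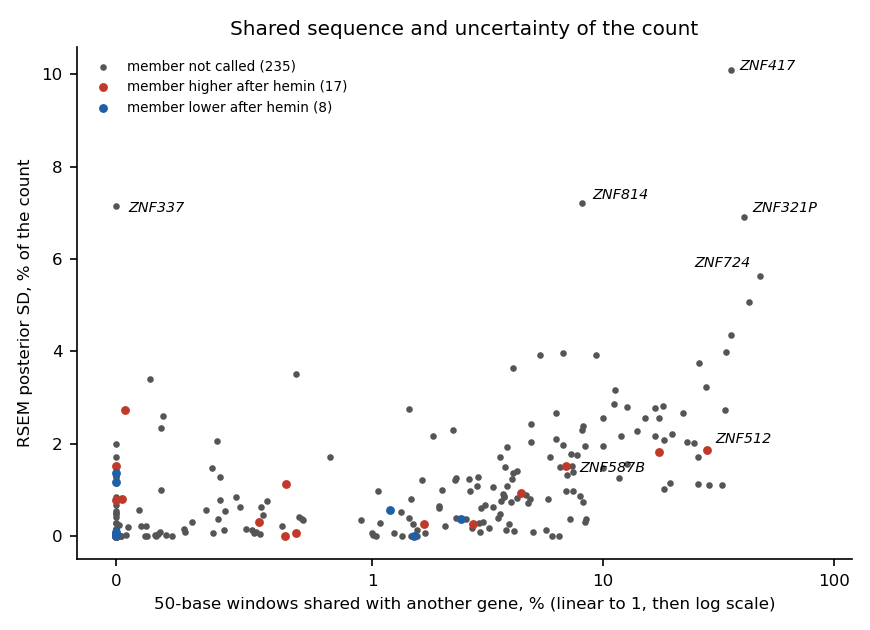
RSEM posterior standard deviation in percent of the count (vertical axis) against the percent of 50-base windows shared with another gene (horizontal axis, linear to 1 and then on a log scale) for the 260 members. The called members, in colour, all lie below 3%, and ZNF417 is highest at 10.1%.

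Promoters of 221 members were found in the RefSeq table of GRCh38.p14, with 272 entries of 250 bases before to 50 bases after a start. The letters AGATAA, a form of the site that GATA factors bind, occurred on either strand in 3.68% of these entries, beside 10.3% of all 35116 promoters. They occurred in none of the 26 entries of called members. Other forms of this site were not searched. TGAGTCA, bound by NF-E2 and AP-1, occurred in 2.21% beside 4.95%, with 1 called member, ZNF512. ACTACAA, the core letters of the motif of ZNF143, occurred in 6.99% beside 2.77%, with ZNF121 and ZNF697 among called members. The motifs were searched on both strands, and none contains another. The median GC content was 62.3% in members' entries and 58.7% in all. The promoters of the called genes with the largest rise and, among those with an entry, the largest fall are shown on the strand of the gene, with ACTACAA in capitals where it occurs. They are at chr19:52028330-52028629 and chr1:119648217-119648516, both on the minus strand of GRCh38.p14.
ZNF614: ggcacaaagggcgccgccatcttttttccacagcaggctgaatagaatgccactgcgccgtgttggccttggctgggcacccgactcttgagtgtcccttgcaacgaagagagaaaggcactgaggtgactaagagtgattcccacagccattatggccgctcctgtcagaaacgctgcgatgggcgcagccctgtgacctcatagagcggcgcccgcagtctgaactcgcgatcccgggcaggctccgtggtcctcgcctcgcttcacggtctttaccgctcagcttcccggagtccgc
ZNF697: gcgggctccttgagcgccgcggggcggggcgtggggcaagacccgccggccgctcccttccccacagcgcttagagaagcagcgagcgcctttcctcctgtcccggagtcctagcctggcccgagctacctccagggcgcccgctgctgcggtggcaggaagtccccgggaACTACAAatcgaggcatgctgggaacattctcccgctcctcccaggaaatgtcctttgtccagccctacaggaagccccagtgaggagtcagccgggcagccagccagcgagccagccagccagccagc
A match is a run of letters and no binding was measured. ZNF697 fell while ZNF121, whose promoter holds the same letters, rose, and ZNF614 holds none of the 3 motifs.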

How the data were processed

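RNA-Seq of K562 cells comprised 2 libraries without and 2 with 50 µM hemin (108 h). Reads of 50 bases were trimmed by the authors with Trimmomatic 0.39 and each library was quantified with RSEM 1.3.1 and STAR 2.7.5c on Ensembl 106. The deposited expected counts are estimated counts of reads per gene, not normalized, and the deposited TPM are scaled by effective length and library. From RSEM's sampling the authors also deposited a posterior mean of each count and its standard deviation (a signal in reads). Deposited FPKM tables were not used here, and gene symbols were taken from the authors' TPM tables.

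Counts were rounded and tested with edgeR 4.0.16 (filterByExpr, TMM, quasi-likelihood, condition only) over 14458 genes, adjusted by Benjamini-Hochberg with 0.05 as threshold. The expected counts summed to 7801824 and 7455447 untreated and to 7513843 and 8241534 after hemin, which limits what is detectable in members with few counts. The settings tried beside it were DESeq2 1.42.0, RLE factors, library size only, 2 other count filters (none, and at least 20 counts), a replicate block, each library left out, posterior mean counts, limma 3.58.1 on log2(TPM + 1) and log2(TPM + 0.1), and length and GC corrections (loess, span 0.4). Coordinates and coding sequences came from GENCODE 44 (GRCh38), which held 99.84% of the gene IDs, and promoters from RefSeq (GRCh38.p14). A KRAB A box was a window of 29 residues with at least 11 equal to the consensus.

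Named members were the 10 largest called changes in each direction (8 lower were called), the 5 highest by TPM, those with a listed role, the 5 with the highest posterior standard deviation and the 3 on each side of the count threshold. Members and lists were chosen with earlier results of these data known. The scripts were tested on simulated data. The values of 1 listed gene and 1 coding stretch are not reported here.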

Additional observations from a re-analysis of the deposited data

How the results depend on the processing

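The direction of the 25 calls held in every setting, and the number of calls did not. Higher members numbered 11 with library size only, 6 by DESeq2 and 0 by limma on log2(TPM + 1) and on log2(TPM + 0.1). Beside them, 5.04%, 4.07%, 0.0968% and 0.104% of all genes were higher in these fits. Lower members numbered 5 by DESeq2 and 0 in both limma fits, beside 3.49%, 0.228% and 0.235% of all genes. The limma fits thus called few genes of any kind. At an unadjusted p below 0.05, limma on log2(TPM + 1) had 16 members higher and 11 lower. Higher members ranged from 7 to 12 and lower members from 4 to 7 when 1 library was left out, where the lone library was assumed to vary like the others. In the other settings there were 15 to 24 higher and 7 to 11 lower. The median log2 fold change of members was 0.0154 with library size only, 0.0662 without a count filter, and 0.0069 and 0.0074 in the limma fits. Over all genes the medians of these fits were -0.0434, 0.0026, -0.0292 and -0.0325. The members' median was thus above that of all genes by 0.0587, 0.0635, 0.0361 and 0.0399, beside 0.0588 in the main fit. With 1 library left out the median was 0.0486 to 0.0635 in members and -0.009 to -0.0027 over all genes. The cause of these differences was not tested.

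With a replicate block 15 members were higher and 7 lower, beside 5.91% and 6.13% of all genes. The members' median was 0.053. The labels do not say whether libraries with the same replicate number were prepared together. Replicate differences of the 2 conditions correlated at 0.0047 across genes. No shared replicate effect was thus visible, which cannot tell whether the libraries were paired. The block lost the calls of ZNF586, ZNF252P, ZNF428 and ZNF862 and gained 1 other.

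Among the 41 named members that were not called, 19 changed sign in at least 1 setting. The reported log2 fold change of these was largest in ZNF827, at 0.40, followed by ZNF263 at 0.16. With library size only ZNF638 was at -0.0053 and ZNF649 at -0.0015. ZNF687 was at 0.0063 without a count filter and at 0.052 with the GC correction. In the limma fits on log2(TPM + 1) and log2(TPM + 0.1), ZNF148 was at -0.0149 and -0.0164, ZNF335 at -0.0086 and -0.0096, ZNF263 at -0.0263 and -0.0276, ZNF644 at -0.1306 and -0.136, ZNF592 at -0.0072 and -0.0065, ZNF827 at -0.1823 and -0.2116, ZNF91 at 0.0248 and 0.0263, ZNF765 at -0.2371 and -0.2629, and ZNF224 at -0.1338 and -0.1394. With 1 library left out the log2 fold changes ranged from -0.1261 to 0.0212 for ZNF595, -0.1921 to 0.0594 for ZNF706, -0.0921 to 0.0705 for ZNF346, -0.0336 to 0.1096 for ZNF638, -0.2068 to 0.1972 for ZNF410, -0.072 to 0.0693 for ZNF687, -0.1026 to 0.0072 for ZNF91, -0.1493 to 0.246 for ZNF649, -0.1172 to 0.2721 for ZNF765, -0.003 to 0.2182 for ZNF814, -0.2594 to 0.1831 for ZNF337 and from -0.2234 to 0.0047 for ZNF519.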

Other observations

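ZNF-named genes below the count threshold showed fewer calls still. Of the 297, 145 passed the filter on low counts, and of these 1 was higher and none was lower in the edgeR test, with 4 higher and 8 lower at an unadjusted p below 0.05. Of all tested genes with fewer than 300 counts 0.806% were higher and 4.31% lower, with 4.12% and 12.1% at the unadjusted p. DESeq2 and limma called none. The gene that rose was ZNF286B, with 15.82 and 8.15 counts untreated and 26.01 and 36.31 counts after hemin (log2 fold change 1.35 ± 0.39, SE, edgeR adjusted p = 0.0463). It was read by fewer counts than any member.

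ZNF731P, annotated without a coding sequence, was the sixth most abundant member per length, at 82.9 and 81.8 TPM untreated and 89.3 and 83.4 TPM after hemin. It stood above most coding members, and 2.54% of its 50-base windows were shared with another gene.

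The deposited TPM divide by an effective length, and this length differed between libraries of 1 condition in some members. RSEM weights it over isoforms. The effective length of the 2 untreated libraries differed by over 0.5 on the log2 scale in 12 of 260 members, or 4.62%, beside 2.13% of tested genes with at least 300 counts. For the 2 hemin libraries it did so in 15 members, or 5.77%, beside 2.53%. The largest gap was in ZNF81, at 11182 and 4600 bases in the hemin libraries. Over all members the median log2 fold change was 0.0071 in TPM and 0.054 in the count test. Over all genes tested these medians were -0.0318 and -0.0048. The median log2 ratio of effective length, hemin over untreated, was 0.0036 in members. The cause of the gap between TPM and counts was not tested.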
